A study of Homo sapiens with 16 samples.

Results

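The genes described here are the noncoding hosts of small nucleolar RNAs (snoRNAs) GAS5, SNHG1, SNHG5, SNHG6, SNHG7, SNHG8, SNHG12, SNHG15, SNHG16 and ZFAS1. They were chosen by name and matched through their Ensembl identifiers to the 54127 gene identifiers of the count files. Of the 10 genes, 9 had an identifier in the files. SNHG8 (ENSG00000269893) was not matched and was not analysed here. All 9 passed the filter on low counts in every comparison.

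RNA was sequenced from established human lines of colorectal cancer, HT55 and SW948, grown as adherent cultures with serum and antibiotics. Each line received itraconazole at 5 µM or the solvent DMSO, and RNA was taken after 6 days. Itraconazole is an azole antifungal drug that inhibits sterol synthesis in fungi. Line and treatment gave 4 groups with 4 libraries in each, which the study's methods describe as biological replicates. The comparison asks which transcripts differ between drug and solvent in each line, and whether the lines differ in this.

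A snoRNA host gene is transcribed by RNA polymerase II and spliced. The snoRNA is cut from an intron and guides chemical modification of ribosomal RNA, by ribose methylation for box C/D snoRNAs and by pseudouridylation for box H/ACA snoRNAs. The spliced exons of many hosts have no long open reading frame, are bound by ribosomes and are removed by nonsense-mediated decay. Many host promoters belong to the terminal oligopyrimidine (TOP) class, in which the RNA begins with a C followed by a run of pyrimidines, as in ribosomal protein mRNAs. Levels of TOP hosts such as GAS5 are known to rise when growth or translation is slowed.

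Sequence around the start of the host RNA is shown for 6 genes, to let the pyrimidines at the start be read beside the values. SNHG12, SNHG7 and SNHG1 had the largest fold changes of the 9 in SW948, and GAS5, SNHG5 and ZFAS1 were lower with itraconazole in HT55 and have an entry in the promoter table. Each line gives 45 bases before and 30 bases from the start that the RefSeq promoter table uses in GRCh38.p14, read along the gene's strand. For SNHG12 and ZFAS1 that start lies inside the RefSeq gene and is not its outermost base. Capitals mark the letters TATAA where they begin 40 to 20 bases before the start, and the longest run of C and T that touches the region from 10 bases before to base 15 after it.
SNHG12, chr1:28581844-28581918, minus strand: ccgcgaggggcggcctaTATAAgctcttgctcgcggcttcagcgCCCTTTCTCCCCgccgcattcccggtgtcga
SNHG7, chr9:136728155-136728229, minus strand: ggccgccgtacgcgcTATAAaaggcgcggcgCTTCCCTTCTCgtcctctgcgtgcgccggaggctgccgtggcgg
SNHG1, chr11:62855856-62855930, minus strand: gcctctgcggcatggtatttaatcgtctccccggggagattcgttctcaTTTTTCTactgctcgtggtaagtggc
GAS5, chr1:173869016-173869090, minus strand: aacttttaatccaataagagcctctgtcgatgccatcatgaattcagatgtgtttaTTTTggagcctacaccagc
SNHG5, chr6:85678704-85678778, minus strand: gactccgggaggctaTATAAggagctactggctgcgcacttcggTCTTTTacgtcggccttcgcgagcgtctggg
ZFAS1, chr20:49278597-49278671, plus strand: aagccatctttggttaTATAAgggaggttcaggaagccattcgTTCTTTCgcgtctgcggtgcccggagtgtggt

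The run was 12 bases long in SNHG12, 6 in SNHG5 and 7 in ZFAS1, and in these it spanned the start, ending at base 11, 5 and 5. In SNHG7 the run of 11 bases lay wholly before the start, from 14 to 4 bases before it. In SNHG1 the run of 7 bases lay after it, at bases 5 to 11, and in GAS5 the run of 4 bases lay at bases 12 to 15. The letters TATAA, searched on the gene's strand, began 30 bases before the start in SNHG7 and SNHG5, 28 in SNHG12 and 29 in ZFAS1. SNHG1 and GAS5 did not hold them in this window. Among the 8 of the 10 genes with an entry in the RefSeq promoter table, SNHG8 included, 5 held TATAA there, against 3.91% of the 35116 promoters of the same length. A run of 7 bases or more was found in 5 of the 8, namely SNHG1, SNHG7, SNHG12, SNHG16 and ZFAS1, against 23.8% of all promoters. Of 12 other noncoding snoRNA hosts with an entry, 6 had a run of 7 or more and 1 held TATAA. Of the 13 ribosomal protein genes hosting snoRNAs with an entry, 10 had a run of 7 or more and 0 held TATAA. These matches describe letters in a window and not initiation sites measured in these cells. For GAS5, named above as a TOP host, the start used is the outermost base of the RefSeq gene. Its RNA may start elsewhere, so this window does not show whether GAS5 has a TOP start.

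Levels are given as CPM, counts per 1000000 gene counts after the library sizes were scaled by the trimmed mean of M values (TMM) over the 16 libraries. Gene counts ran from 8269406 to 11110814 per library. Marker levels, in contrast, are on plain library totals without TMM scaling. The summed level of the colon epithelial markers was 6116 to 8786 CPM in all libraries. In SW948 their group means moved in both directions with itraconazole. CDH1, VIL1 and CDX2 were lower (CDX2 238 to 104 CPM), and EPCAM, KRT8, KRT18 and KRT19 were higher (KRT19 448 to 895 CPM). The markers of other cell types summed to 0.217 to 10.2 CPM over the 7 measured, with CD3E, COL3A1 and INS at 0. Most of that sum was COL1A1, at 3.72 CPM in SW948 with DMSO and 9.23 with itraconazole. Mitochondrial genes took 2.11 to 2.19% of gene counts in HT55 with DMSO and 2.65 to 3.06% with itraconazole, and 1.06 to 1.48% and 2.05 to 2.97% in SW948. HT55 itraconazole replicate 3 lay far from treated replicates 1 and 2, with a chi-square statistic per gene of 26.0 and 40.5. Against replicate 4 it gave 12.3, below the 15.7 between replicates 2 and 4, so it did not stand apart alone. Replicates 1 and 2 were the closest treated pair at 4.88, and HT55 controls gave 1.43 to 2.34. For every member but SNHG12 and SNHG15, treated HT55 replicates 3 and 4 both lay below replicates 1 and 2. The members' results in HT55, and the counts of the other lists, are given with and without treated replicate 3. The treated SW948 libraries also varied, with 3.76 to 21.5 per pair. On bulk RNA, fewer cells with a transcript cannot be told from less of it per cell. The part that mitochondrial share, COL1A1 or spread between libraries had in the results was not tested.

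In SW948, itraconazole was followed by higher levels of 7 of the 9 host genes, namely GAS5, SNHG1, SNHG5, SNHG6, SNHG7, SNHG12 and SNHG16. SNHG15 was lower and ZFAS1 was not called. The largest fold change was that of SNHG12, at 6.23-fold. Calls came from the edgeR quasi-likelihood method on 4 against 4 libraries, with genes called at a Benjamini-Hochberg adjusted p under 0.05. Across all genes tested 80.2% were called, 38.9% higher and 41.3% lower, so that a call as such is common in this line.

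**Figure D1:**
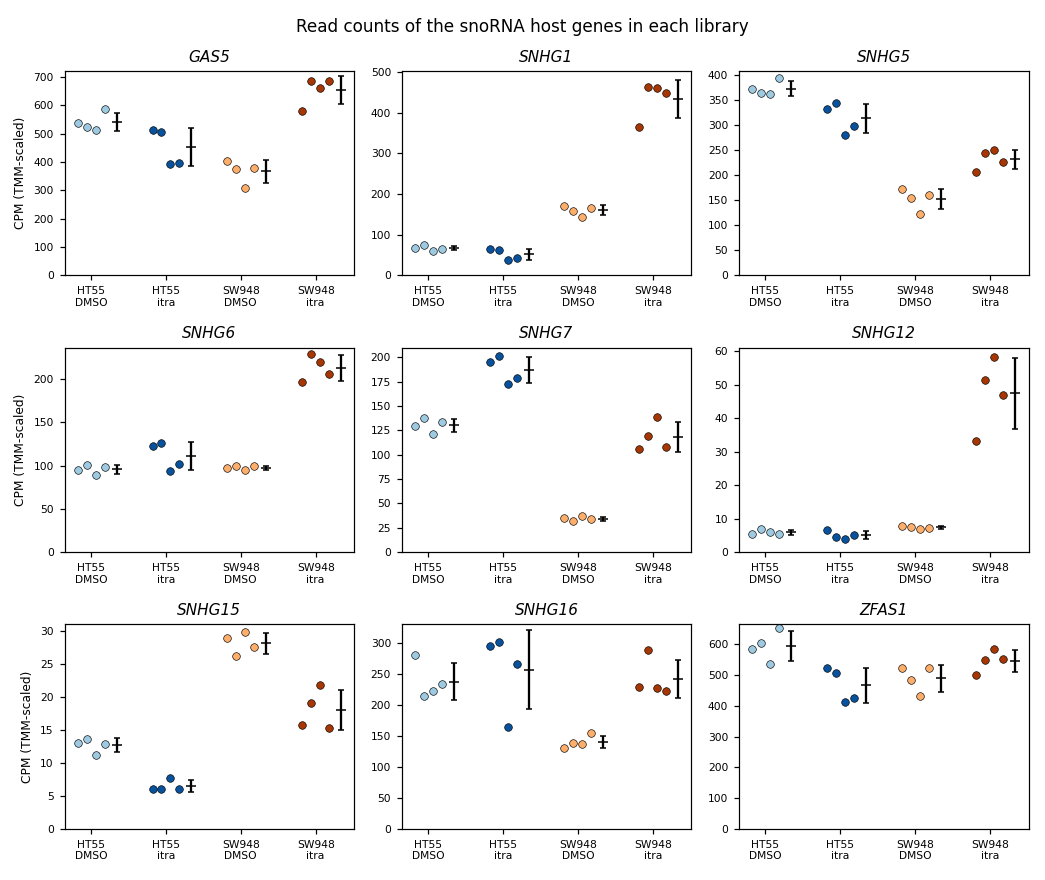
CPM of each host gene (vertical axis, starting at 0) in each of the 16 libraries, with 1 panel per gene and the 4 groups of line and treatment along the horizontal axis. Points are libraries in order of replicate number and the bars to their right give the mean ± SD (n = 4). The treated SW948 libraries lie above the SW948 controls in 7 panels, and below them for SNHG15.

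SNHG12 hosts both box C/D and box H/ACA snoRNAs. Its gene lies at chr1:28905050-28909644 (GRCh37, minus strand), and its exons overlap those of TRNAU1AP on the opposite strand. The SW948 libraries gave 7.79, 7.67, 7.04 and 7.17 CPM with DMSO and 33.3, 51.4, 58.4 and 47.0 CPM with itraconazole. Every treated library was over 4 times any control, and the groups did not overlap. The log2 fold change was 2.64 ± 0.157 (SE, adjusted p = 2.82e-09), and ranked 205 of 12505 genes from the highest. The HT55 libraries gave 5.42, 6.90, 5.94 and 5.46 CPM with DMSO and 6.77, 4.49, 3.90 and 5.22 CPM with itraconazole. These groups overlapped, on 38 to 67 counts per library, and the log2 fold change of -0.23 ± 0.19 (SE) was not called (adjusted p = 0.32), nor was the value of -0.10 without treated replicate 3 (adjusted p = 0.635).

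SNHG7, a host of box H/ACA snoRNAs at chr9:139615818-139622636 (minus strand), was the 1 gene of the 9 that was higher with itraconazole in both lines. HT55 levels were 129.7, 137, 121 and 133 CPM with DMSO and 194.5, 201, 173 and 178 CPM with itraconazole. SW948 levels were 34.8, 32.1, 37 and 33.9 CPM with DMSO and 105, 119, 139 and 108 CPM with itraconazole. The treated libraries lay above all controls in each line, and the treated SW948 values overlapped those of the HT55 controls. This was a log2 fold change of 0.51 ± 0.069 (SE, adjusted p = 0.000185) in HT55 and 1.74 ± 0.092 (SE, adjusted p = 1e-09) in SW948, and 0.56 in HT55 without treated replicate 3 (adjusted p = 5.75e-06). Its exons overlap those of DIPK1B on the opposite strand. Among genes tested in both lines, 19.9% were called higher in both.

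SNHG1, a host of box C/D snoRNAs, lies at chr11:62619450-62623425 on the minus strand. In SW948 it measured 172, 159, 143 and 166 CPM with DMSO and 366, 463, 461 and 449 CPM with itraconazole. Replicate 1 was the lowest treated library and still lay above every control. The log2 fold change was 1.41 ± 0.087 (SE, adjusted p = 4e-09). In HT55 it measured 68.2, 73.6, 60.9 and 65.6 CPM with DMSO and 64.6, 63.5, 38.8 and 43.0 CPM with itraconazole. Treated replicates 3 and 4 lay below every control, whereas replicates 1 and 2 lay within the control range. The log2 fold change of -0.36 ± 0.156 (SE) was not called (adjusted p = 0.0719), nor was the value of -0.22 without replicate 3 (adjusted p = 0.117). It was called lower under 6 alternatives. These were no filter on low counts (adjusted p = 0.0203), plain library totals (-0.53, adjusted p = 0.00899), the replicate block (adjusted p = 0.016), 1 fit on all 16 libraries (adjusted p = 0.0306), and leaving out HT55 itraconazole replicate 1 (-0.47, adjusted p = 0.0307) or 2 (-0.47, adjusted p = 0.0249).

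SNHG6, which hosts a box C/D snoRNA, lies at chr8:67832796-67838633 (minus strand), and its exons overlap those of MCMDC2 on the other strand. The SW948 libraries gave 97.0, 99.6, 94.6 and 99.1 CPM with DMSO and 196, 229, 219 and 206 CPM with itraconazole. The SW948 controls were tightly grouped and every treated library lay far above them. This was a log2 fold change of 1.09 ± 0.065 (SE, adjusted p = 2.76e-09), a fold of 2.13. The HT55 libraries gave 95.5, 101, 89.0 and 98.4 CPM with DMSO and 123, 126, 93.9 and 102 CPM with itraconazole. Only treated replicate 3 fell within the control range. With it the log2 fold change was 0.21 ± 0.097 (SE, adjusted p = 0.0912), and without it 0.30 ± 0.078 (SE, adjusted p = 0.00479). With it, 1 fit on all 16 libraries called SNHG6 higher (0.21, adjusted p = 0.0416), and plain library totals gave 0.04 (adjusted p = 0.716).

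GAS5, the growth arrest-specific RNA, hosts box C/D snoRNAs and its transcript is known to bind the glucocorticoid receptor. It lies at chr1:173827697-173838020 on the minus strand. SW948 levels were 404, 376, 307 and 380.1 CPM with DMSO and 581, 686, 660.4 and 685 CPM with itraconazole. All treated libraries were above all controls, and the log2 fold change was 0.80 ± 0.089 (SE, adjusted p = 1.41e-06). HT55 levels were 538, 524, 515 and 587 CPM with DMSO and 514, 506, 394 and 397 CPM with itraconazole. The groups did not overlap, but treated replicate 1 and control replicate 3 lay at nearly the same level. The log2 fold change of -0.26 ± 0.099 (SE) was called lower (adjusted p = 0.0449). This call was lost in 6 of 8 fits that left out a single library, at adjusted p of 0.0759 to 0.153. It was kept without HT55 itraconazole replicate 1 or 2 and lost without HT55 itraconazole replicate 3 or 4 or any of the controls, with -0.19 as the log2 fold change without treated replicate 3.

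SNHG5, a host of box C/D snoRNAs at chr6:86360209-86388650 (minus strand), moved in opposite directions in the lines, as GAS5 did. In HT55 it measured 373, 365, 363 and 396 CPM with DMSO and 334, 344, 281 and 298 CPM with itraconazole. In SW948 it measured 172, 155, 124 and 161 CPM with DMSO and 208, 244, 250.3 and 226 CPM with itraconazole. The groups did not overlap in either line. The log2 fold change was -0.26 ± 0.075 (SE, adjusted p = 0.0147) in HT55 and 0.57 ± 0.096 (SE, adjusted p = 8.87e-05) in SW948. The HT55 value was -0.19 without treated replicate 3 (adjusted p = 0.0191), and -0.22 and not called without HT55 DMSO replicate 4 (adjusted p = 0.0652). Among genes tested in both lines, 6.66% were called in opposite directions.

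SNHG16, a host of box C/D snoRNAs at chr17:74553809-74667067 (plus strand), was higher with itraconazole in SW948. There it measured 130.2, 138, 137 and 155 CPM with DMSO and 229, 288, 227 and 223 CPM with itraconazole. All treated libraries exceeded all controls, and replicate 2 was the highest. This was a log2 fold change of 0.76 ± 0.087 (SE, adjusted p = 1.98e-06). The HT55 libraries gave 279, 215, 222 and 234 CPM with DMSO and 295, 300.3, 164 and 266 CPM with itraconazole. Treated replicate 3 was the lowest library of the line, and replicates 1 and 2 were the highest. With replicate 3 the log2 fold change was 0.11 ± 0.167 (SE, adjusted p = 0.614). Without it the value was 0.28 ± 0.086 (SE, adjusted p = 0.0107), and on plain library totals with all 8 libraries it was -0.07 (adjusted p = 0.705).

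SNHG15, which hosts a box H/ACA snoRNA at chr7:45022618-45026560 (minus strand), was the 1 gene of the 9 lower with itraconazole in both lines. HT55 levels were 13.1, 13.7, 11.3 and 12.9 CPM with DMSO and 6.06, 6.02, 7.805 and 6.09 CPM with itraconazole. The SW948 libraries gave 29.0, 26.2, 29.8 and 27.6 CPM with DMSO and 15.7, 19.1, 21.9 and 15.4 CPM with itraconazole. The groups did not overlap in either line, and treated replicate 3 was the highest treated library of each. The log2 fold change was -0.97 ± 0.135 (SE, adjusted p = 0.000222) in HT55, and -1.06 ± 0.132 (SE, adjusted p = 1.28e-05) without treated replicate 3. In SW948 it was -0.68 ± 0.113 (SE, adjusted p = 6.72e-05). Among genes tested in both lines, 19.5% were called lower in both.

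ZFAS1, a host of box C/D snoRNAs, lies at chr20:47894715-47916137 (plus strand), and its exons overlap those of ZNFX1 on the opposite strand. In HT55 it measured 584, 603, 536 and 652 CPM with DMSO and 522, 505, 413 and 424 CPM with itraconazole. Every treated library lay below every control, and the log2 fold change was -0.35 ± 0.093 (SE, adjusted p = 0.00879). Without treated replicate 3 it was -0.29 ± 0.083 (SE, adjusted p = 0.00888). SW948 levels were 523, 484, 430.3 and 521 CPM with DMSO and 499, 548, 584 and 551 CPM with itraconazole. These groups overlapped, and the log2 fold change of 0.12 ± 0.078 (SE) was not called (adjusted p = 0.164). On plain library totals the SW948 value turned to -0.21 ± 0.064 (SE, adjusted p = 0.0081), and without SW948 itraconazole replicate 1 it was 0.18 (adjusted p = 0.0335).

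In HT55, then, 5 of the 9 genes were called, SNHG7 higher and GAS5, SNHG5, SNHG15 and ZFAS1 lower, against 54.0% of all genes tested (27.5% higher and 26.5% lower). Of the 9, 4 were called in both lines, GAS5, SNHG5, SNHG7 and SNHG15, against 46.1% of the genes tested in both. Without treated replicate 3 the calls were 6, with SNHG6, SNHG7 and SNHG16 higher and SNHG5, SNHG15 and ZFAS1 lower, against 64.5% of all genes in that fit. Without HT55 DMSO replicate 4 they were 3, SNHG7, SNHG15 and ZFAS1, against 46.4%. CPM values did not overlap between the groups for 5 of the 9 genes in HT55, against 49.4% of all genes, and for 8 of the 9 in SW948, against 74.7%. The members' median log2 fold change was -0.26 in HT55 and 0.80 in SW948, beside -0.015 and -0.025 over all genes tested. Plain library totals in place of TMM scaling moved the median of all genes to -0.18 in HT55 and -0.35 in SW948, and the all-gene calls from 3340 higher and 3213 lower to 2280 and 4709 in HT55, and from 4865 and 5165 to 3147 and 6826 in SW948. With plain totals the members' medians were -0.42 in HT55 and 0.47 in SW948, and their calls were 1 higher and 5 lower in HT55 and 7 higher and 2 lower in SW948. The log2 fold changes that moved by over 1.5 times while keeping their call were, in SW948, GAS5 to 0.47, SNHG5 to 0.23 (adjusted p = 0.0203) and SNHG16 to 0.42, and, in HT55, GAS5 to -0.43 and SNHG5 to -0.42.

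**Figure D2:**
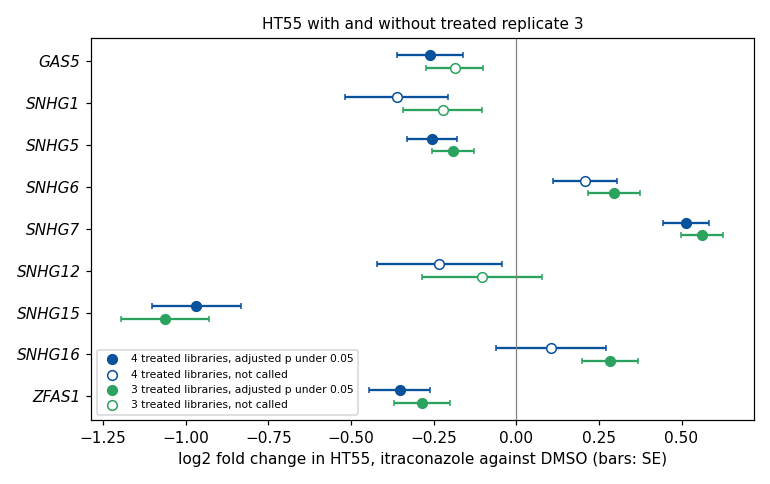
Log2 fold change with itraconazole in HT55 (horizontal axis) for each host gene (rows), with all 4 treated libraries in blue and without treated replicate 3 in green. Bars are standard errors and filled points have an adjusted p under 0.05 (edgeR). SNHG6 and SNHG16 pass the threshold without replicate 3, and GAS5 does not.

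The difference of the treatment effect between the lines was tested as an interaction on all 16 libraries. Its value is the log2 fold change in SW948 minus that in HT55. For 8 of the 9 genes the effect was higher in SW948, against 53.9% of all genes with a called interaction and 24.8% with a positive one. The interaction was 2.91 ± 0.256 (SE, adjusted p = 3.85e-08) for SNHG12, 1.80 ± 0.184 (SE, adjusted p = 2.19e-07) for SNHG1 and 1.25 ± 0.119 (SE, adjusted p = 9.68e-08) for SNHG7. It was 1.09 for GAS5, 0.91 for SNHG6, 0.85 for SNHG5, 0.68 for SNHG16 and 0.50 for ZFAS1, with adjusted p of 3.08e-06, 3.53e-06, 1.99e-05, 0.00738 and 0.00224. SNHG12 ranked 110 of 13249 genes from the highest. For SNHG15 the difference of 0.31 ± 0.178 (SE) was not called (adjusted p = 0.145). All 8 calls held under every alternative run for the interaction, and plain totals lowered ZFAS1 to 0.31 (adjusted p = 0.0188). The members' median was 0.91, beside -0.04 over all genes.

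**Figure D3:**
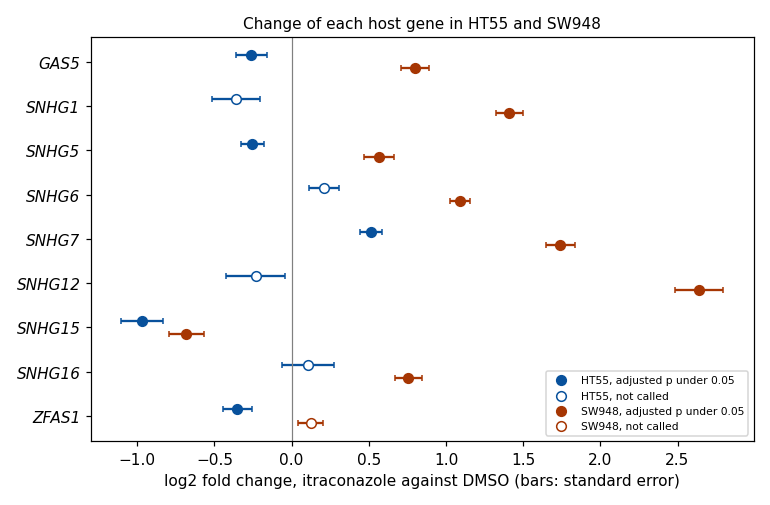
Log2 fold change with itraconazole against DMSO (horizontal axis) for each host gene (rows) in HT55 (blue) and SW948 (brown). Bars are standard errors, and filled points have an adjusted p under 0.05 (edgeR, 4 against 4 libraries). The SW948 value lies to the right of the HT55 value for all 9 genes, and that of SNHG12 is farthest right at 2.64.

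Under DMSO the lines already differed in 8 of the 9 genes, 3 higher and 5 lower in SW948, against 84.2% of all genes, 42.6% higher and 41.6% lower. These control libraries are the same as those in the treatment comparisons, so the results are not independent. SNHG1 and SNHG15 were higher in SW948, with log2 differences (SW948 minus HT55) of 1.26 ± 0.059 (SE, adjusted p = 5.93e-16) and 1.15 ± 0.082 (SE, adjusted p = 2.45e-12). SNHG7 and SNHG5 were lower in SW948 by the largest amounts, at -1.91 ± 0.053 (SE, adjusted p = 1.69e-20) and -1.28 ± 0.065 (SE, adjusted p = 2.73e-15). SNHG16 at -0.76, GAS5 at -0.55 and ZFAS1 at -0.27 were also lower in SW948 (adjusted p = 5.43e-11, 8.77e-09 and 0.000144), and ZFAS1 was not called on plain library totals (-0.08, adjusted p = 0.187). SNHG12 was higher in SW948 by 0.32 ± 0.128 (SE, adjusted p = 0.024), but not by the DESeq2 test (adjusted p = 0.0653). SNHG6 was at 95.9 ± 5.11 CPM in HT55 and 97.5 ± 2.27 CPM in SW948 (SD, n = 4), a log2 difference of 0.03 ± 0.046 (SE, adjusted p = 0.567) that became 0.22 (adjusted p = 0.000132) on plain totals. With plain totals the calls between the lines were 4 higher and 4 lower in SW948, in place of 3 and 5, while those of all genes were 51% higher and 33.7% lower. GAS5 was then at -0.36 and SNHG12 at 0.51. The control groups did not overlap for 8 of the 9 genes, against 78.8% of all genes.

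The order of the 4 groups differed from gene to gene. SNHG1 and SNHG12 had the 2 SW948 groups highest, with the treated group on top, at 435 ± 46.4 and 47.5 ± 10.6 CPM (SD, n = 4). SNHG15 also had both SW948 groups above both HT55 groups, but with the controls on top, at 28.1 ± 1.57 CPM. SNHG5 had both HT55 groups above both SW948 groups, from 374 ± 15.2 CPM in the HT55 controls to 153 ± 20.6 CPM in the SW948 controls. GAS5 was highest in treated SW948, at 653 ± 49.4 CPM, and lowest in SW948 controls, at 367 ± 41.6 CPM, which overlapped treated HT55 at 453 ± 65.9 CPM. SNHG7 was highest in treated HT55, at 187 ± 13.4 CPM, and lowest in SW948 controls, at 34.4 ± 2.04 CPM. ZFAS1 was highest in HT55 controls, at 594 ± 47.9 CPM, which overlapped treated SW948 at 546 ± 35.1 CPM, and the latter overlapped the SW948 controls at 489.7 ± 43.5 CPM, which in turn overlapped treated HT55 at 466 ± 55.6 CPM. For SNHG6, the HT55 controls, SW948 controls and treated HT55 libraries overlapped, and treated SW948 stood alone at 213 ± 14.5 CPM. For SNHG16, 3 groups overlapped, at 238 ± 29, 257 ± 63.3 and 242 ± 30.9 CPM in HT55 with DMSO, HT55 with itraconazole and SW948 with itraconazole, above 140 ± 10.3 CPM in the SW948 controls.

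Over the 16 libraries the members' log2 CPM correlated with Pearson's r over 0.8 in 5 of 36 pairs, the highest being SNHG6 with SNHG12 at 0.941 and SNHG1 with SNHG12 at 0.921. The r was below 0 in 9 pairs, 4 of which included SNHG15, and the lowest was SNHG7 with SNHG15 at -0.858. The libraries share 2 lines and 2 treatments, so the 16 points are not independent. For the 3 members with the highest mean CPM, the 3 other genes with the most similar pattern were taken from 9309 candidates. They were RPS12, RPL35 and CACYBP for SNHG5 (r = 0.987, 0.979 and 0.978), RPL27, IMPDH2 and GTF2A1 for GAS5 (r = 0.966, 0.956 and 0.953), and RPS19, NSUN5 and PSMD6 for ZFAS1 (r = 0.886, 0.858 and 0.852).

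Genes that begin close to a host on the opposite strand were read as neighbours. The strand setting of the counting is not given in the sources used here, so it is not known whether reads in exons shared with an opposite-strand gene were assigned to the host by strand or set aside as ambiguous. The start of SLC3A2, which encodes the heavy chain of amino acid transporters, lies 51 bases from that of SNHG1, and the genes do not overlap. SLC3A2 was at 485 ± 5.39 CPM with DMSO and 538 ± 15.3 CPM with itraconazole in HT55, and at 321 ± 11.9 and 919 ± 306 CPM in the SW948 groups (SD, n = 4). Its log2 fold change was 0.14 ± 0.055 (SE, adjusted p = 0.0461) in HT55 and 1.48 ± 0.182 (SE, adjusted p = 3.83e-06) in SW948, beside -0.36 (not called) and 1.41 for SNHG1. In HT55 SLC3A2 was at 0.14 without treated replicate 3 (adjusted p = 0.03), and at -0.02 on plain library totals (adjusted p = 0.789). ZNFX1, which encodes a zinc finger protein, starts 248 bases from ZFAS1 and overlaps it. It was at 64.4 ± 1.39 CPM with DMSO and 35.4 ± 5.1 CPM with itraconazole in SW948, a log2 fold change of -0.89 ± 0.09 (SE, adjusted p = 4.98e-07), while ZFAS1 was not called. In HT55 its log2 fold change was 0.00 (adjusted p = 1), and 0.01 without treated replicate 3 (adjusted p = 0.949). ZBTB37, which starts 800 bases from GAS5 and overlaps it, was lower in HT55 at -0.65 ± 0.241 (SE, adjusted p = 0.0408) on 11 to 25 counts per library, and was not called in SW948 (-0.43, adjusted p = 0.181). Without treated replicate 3 the HT55 call was lost (-0.52, adjusted p = 0.102), and on plain totals ZBTB37 was called lower in SW948 (-0.75, adjusted p = 0.028). A noncoding gene (ENSG00000267546) 44 bases from SNHG16 was not analysed here.

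The values of the members are those of the host identifiers and not of the snoRNAs. Of the 6 snoRNA genes that the annotation used here places inside the members, 5 had any count, and together they had 104 counts over the 16 libraries. SNORD12B, inside ZFAS1, had 34, SNORD78, inside GAS5, had 33 and SNORD12, inside ZFAS1, had 20. These 3 lie wholly or almost wholly in annotated exons of their hosts, on the same strand, where reads can be set aside as ambiguous, so their counts do not measure how well they were covered. No snoRNA was compared between groups.

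Other snoRNA hosts were read in the same fits. Of all genes tested, 27.5% were called higher and 26.5% lower in HT55, and 38.9% and 41.3% in SW948. On plain library totals these shares were 18.8% and 38.8% in HT55 and 25.2% and 54.6% in SW948. Without HT55 treated replicate 3 they were 32.6% and 31.9% in HT55. Of 14 other noncoding hosts listed, 11 were in the files and 9 were tested in HT55, where 4 were higher and 3 lower, with a median log2 fold change of 0.14. In SW948, 6 of 10 tested were higher and 3 lower, with a median of 0.47. On plain library totals the HT55 median turned to -0.02, with the counts at 4 and 3, and the SW948 median was 0.14, with 5 higher and 3 lower. Without HT55 treated replicate 3 the HT55 counts were 4 and 3 and the median 0.17. SNHG18 had the highest log2 fold change in each line, 1.24 (adjusted p = 8.95e-05) in HT55 and 2.98 (adjusted p = 7.45e-11) in SW948, where its mean was 12.3 ± 1.07 CPM under DMSO and 99.7 ± 14.7 CPM under itraconazole (SD, n = 4). SNHG3, the next highest, had log2 fold changes of 0.91 (adjusted p = 0.0152) and 2.28 (adjusted p = 1.71e-10) in HT55 and SW948. Both lines had lower SNHG20 and SNHG11 with itraconazole, at -1.62 and -0.77 in HT55 (adjusted p = 0.00112 and 0.0102) and -1.13 and -1.18 in SW948 (adjusted p = 0.0023 and 3.26e-06). Counts were low, with 4 to 14 for SNHG20 per treated HT55 library and 4 to 18 per treated SW948 library. For SNHG11 they were 17 to 37 and 34 to 61.

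Ribosomal protein genes that host snoRNAs are protein-coding genes of the TOP class. In SW948, 20 of 21 were higher, against 38.9% of all genes, with a median log2 fold change of 0.51, and RPL12 and RPL37 were highest at 1.10 (adjusted p = 2.41e-08) and 0.80 (adjusted p = 2.14e-07). RPSA, at 0.24 (adjusted p = 0.00697), and RPL3, at -0.06 (adjusted p = 0.526), were lowest. In HT55, 0 of the 21 were called by edgeR, against 54.0% of all genes. Of these 21, 0 had an unadjusted p under 0.05 and 0 were called by DESeq2, with log2 fold changes from -0.18 for RPL3 to 0.26 for RPL12. These counts moved with the settings. In HT55, 3 were called higher without treated replicate 3, and 8 were called lower on plain library totals, with which 14 were higher and 1 lower in SW948 and the SW948 median was 0.17. Of all genes, 32.6% were higher in HT55 without treated replicate 3. On plain totals 38.8% of all genes were lower in HT55, and 25.2% were higher and 54.6% lower in SW948. The interaction was called for 19 of the 21, all positive, with a median of 0.54, and for 16, all positive, on plain totals. Over all genes it was called positive for 24.8%, and for 17.3% on plain totals. Ribosomal protein genes have many near-identical copies and reads with several alignments were not counted, so their levels are uncertain. The row for such reads held 21.99 to 27.9% of each library's sum of gene counts and rows that name no gene. In SW948 it held 21.99 to 23.6% with DMSO and 25.3 to 26.3% with itraconazole. Whether a read can enter this row more than once is not given, so this is not a share of reads. The part of such reads in the ribosomal protein counts was not tested.

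Protein-coding hosts of other kinds were mixed, with 4 of 13 higher and 6 lower in HT55 and 6 higher and 5 lower in SW948, at medians of 0.02 and 0.05. The shares over all genes were 27.5% higher and 26.5% lower in HT55, and 38.9% and 41.3% in SW948. TAF1D, a subunit of an RNA polymerase I initiation complex, and EIF4A2, a translation initiation helicase, were highest, at 0.84 and 0.75 in HT55 and 2.76 and 2.28 in SW948. NOP56 and DKC1, core proteins of box C/D and box H/ACA snoRNPs, were lowest, at -1.11 and -0.42 in HT55 and -1.71 and -0.86 in SW948. All of these 8 values were called. NOP56 and DKC1 are also in the list of snoRNP genes, so the counts of the lists are not separate. Among 15 genes of the snoRNP core and its assembly, 1 was higher and 8 lower in HT55, with a median of -0.345, and 4 were higher and 7 lower in SW948, with a median of -0.23. On plain library totals these counts were 0 higher and 11 lower in HT55 and 1 and 11 in SW948, and the medians of the protein-coding hosts turned to -0.15 and -0.29. With plain totals 18.8% of all genes were higher and 38.8% lower in HT55, and 25.2% and 54.6% in SW948. Without HT55 treated replicate 3, the HT55 counts were 5 higher and 6 lower for the protein-coding hosts and 1 and 8 for the snoRNP genes, with medians of 0.07 and -0.25. The shares of all genes in that fit were 32.6% and 31.9%. RUVBL1, an assembly ATPase, was at -0.81 in HT55 (adjusted p = 7.16e-05) and -1.78 in SW948 (adjusted p = 2.51e-09). NOP10, a small H/ACA protein, was higher in both lines, at 0.23 (adjusted p = 0.0203) and 0.61 (adjusted p = 8.75e-05).

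**Figure D4:**
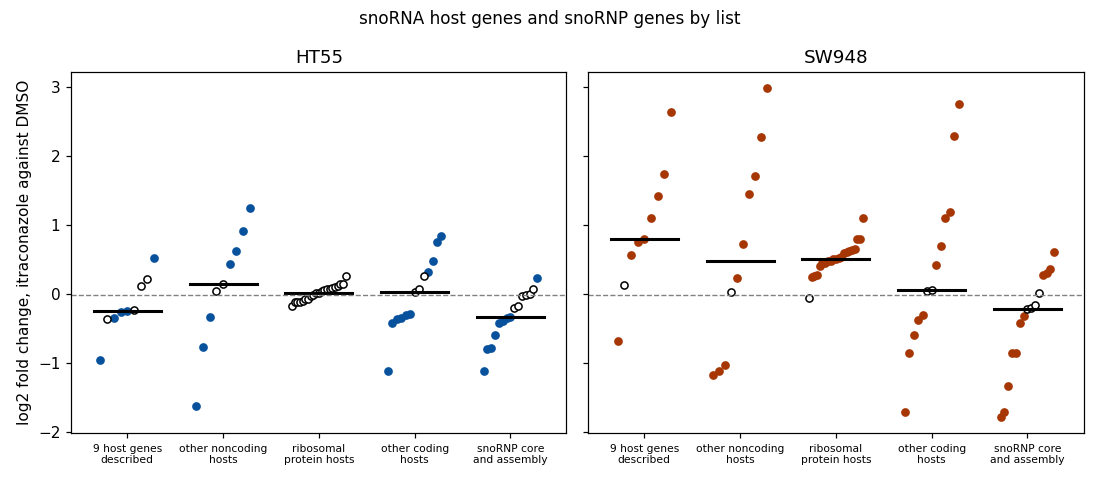
Log2 fold change with itraconazole (vertical axis) of single genes in 5 lists (horizontal axis), in HT55 on the left and SW948 on the right. NOP56 and DKC1 appear both among the other coding hosts and among the snoRNP genes. Filled points have an adjusted p under 0.05 (edgeR), thick lines are list medians and the dashed line is the median of all genes tested. In SW948 the lines lie at 0.80 for the 9 host genes and 0.51 for ribosomal protein hosts, and in HT55 at -0.26 and 0.02. On plain library totals the SW948 medians were 0.47 and 0.17, and the HT55 medians -0.42 and -0.16.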

How the data were processed

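RNA was purified with a column kit, and single-end 50 bp TruSeq libraries were sequenced. The submitters' processing notes name TopHat, HTSeq, DESeq and the build hg19, without versions. The authors deposited raw read counts per Ensembl gene for each library, not normalised. The 5 rows that name no gene were left out. Of the sum of gene counts and these rows, the row for reads outside annotated genes held 3.79 to 4.94%. The row for several alignments held 21.99 to 27.9%. HTSeq leaves out reads with several alignments and, by the ambiguous total (1.23 to 1.48% of that sum), reads it cannot assign to a single gene.

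Counts were tested with edgeR 4.0.16 (quasi-likelihood, TMM, filterByExpr) in R 4.3.3, each line on its 8 libraries, the control libraries of both lines against each other, and the interaction on all 16. P-values were adjusted over all genes tested. Each SE is the absolute log2 fold change divided by the root of its F value. DESeq2 1.42.0 was an alternative. CPM used TMM factors over 16 libraries, with group means of 1.03 and 0.911 in HT55 with DMSO and itraconazole and 1.18 and 0.913 in SW948. Correlations used log2(CPM + 0.5). The fits were tested on simulated data with 200 genes changed by a log2 of 1. Of these, 80.5% were recovered in HT55, 91% in SW948, 73.5% for the interaction and 94.5% between the lines. False calls were 6.395, 4.712, 6.962 and 6.897% of calls, in the same order, at an adjusted p under 0.05. No libraries held identical counts. Intervals cover the spread between libraries only.

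Symbols and GRCh37 positions came from GENCODE and a table of gene names (47098 of 54127 identifiers matched), and sequences from RefSeq (GRCh38.p14). The annotation release behind the authors' counts is not given in the sources used here. Positions, exon overlaps and snoRNA genes may therefore differ from the gene models that were counted. The members and gene lists were chosen with earlier results of these data known. All members were named, and from each other list the 2 highest and 2 lowest log2 fold changes at most. For members with the highest mean CPM, similar genes needed a mean log2 CPM of at least 3. Neighbours were opposite-strand genes starting within 1000 bases. Alternatives were DESeq2 size factors, plain totals, the DESeq2 Wald test, no filter, at least 10 counts in every library, the replicate number as a block, leaving out each library, leaving out the top 20 and mitochondrial genes, an adjusted p under 0.01, and 1 fit on all 16 libraries. The gene lists and neighbours were also read on plain totals and without HT55 itraconazole replicate 3, both chosen after seeing the data.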

Additional observations from a re-analysis of the deposited data

Results flagged for a closer look

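The effect of itraconazole differed between the lines, by the interaction test of edgeR, for 8 of the 9 host genes, all positive, against 53.9% of all genes called and 24.8% called positive. The log2 difference, SW948 minus HT55, was 1.09 for GAS5, 1.80 for SNHG1, 0.85 for SNHG5, 0.91 for SNHG6, 1.25 for SNHG7, 2.91 for SNHG12, 0.68 for SNHG16 and 0.50 for ZFAS1.

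In 3 of 36 sets of 4 libraries (a gene in a group), 1 library lay far from the others, where chance at 1 in 20 would give 1.8. SNHG1 in SW948 itraconazole replicate 1, at 366 CPM against 449 to 463 CPM in the others, had a gap of 0.857 of the range. SNHG15 in HT55 itraconazole replicate 3, at 7.805 CPM against 6.02 to 6.09 CPM, had a gap of 0.961 of the range. SNHG16 in SW948 itraconazole replicate 2, at 288 CPM against 223 to 229 CPM, had a gap of 0.904 of the range.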

How the results depend on the processing

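The count of host genes called in HT55 was 5 and became 3 at an adjusted p under 0.01 (37.6% of all genes), 7 with 1 fit on all 16 libraries (53.5%), and ran from 3 to 6 when single libraries were left out. The corresponding ranges were 8 to 9 in SW948 (8 called), 8 to 8 for the interaction (8) and 7 to 8 between the lines under DMSO (8). Sign changes were found for SNHG16 in HT55 (-0.0704) and ZFAS1 in SW948 (-0.21) on plain library totals, and for SNHG6 between the lines without HT55 DMSO replicate 3 (adjusted p = 0.835), its range with single libraries left out being -0.0112 to 0.0477. For single genes, 133 of the HT55 values kept direction and side of the threshold, 10 lost a call and 9 gained one. In SW948 these were 151, 0 and 1, for the interaction 216, 0 and 0, and between the lines 144, 7 and 1. The lost calls between the lines were 6 of SNHG12 and 1 of ZFAS1. The GAS5 call in HT55 was lost with DESeq2 size factors (adjusted p = 0.0553). The cause was not tested. Libraries with the same replicate number did not deviate together (r from -0.03 to 0.131 in HT55 and -0.0002 to 0.133 in SW948), and not every library correlated best with its own number. With the number as a replicate block the calls were 6, 8, 8 and 8 host genes, the added HT55 call being SNHG1 (-0.39, adjusted p = 0.016). Precision was limited by counts for SNHG12 and SNHG15, which had 38 to 133 counts per HT55 library, and by the spread of the treated HT55 libraries.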

Other observations

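Genes listed under RNA decay and TOP RNA binding moved in both directions. Whether they act on the transcripts of the host genes described here was not tested. Over all genes tested, 27.5% were higher and 26.5% lower in HT55, and 38.9% and 41.3% in SW948. Of 10 nonsense-mediated decay factors, 3 were higher and 2 lower in HT55, and 5 were higher and 4 lower in SW948, with median log2 fold changes of 0.05 and 0.23, which became -0.11 and -0.10 on plain library totals. UPF1, the central helicase of this decay, was higher in both lines, at 0.64 ± 0.058 (SE, adjusted p = 1.73e-05) and 0.89 ± 0.062 (SE, adjusted p = 1.26e-08) in the edgeR test, and UPF3A was lower, at -0.60 ± 0.14 (SE, adjusted p = 0.0047) and -0.94 ± 0.078 (SE, adjusted p = 6.71e-08). UPF2 was at 0.99 in SW948 (adjusted p = 5.04e-08).

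Of 11 genes of the exosome and the exonuclease decay pathway, 3 were higher and 4 lower in HT55, and 3 higher and 6 lower in SW948. Without HT55 itraconazole replicate 3 the HT55 counts were 3 and 5, the median moving from -0.09 to -0.23, and the decay factors above had 3 and 2. In that fit 32.6% of all genes were higher and 31.9% lower. On plain library totals the medians of the exosome and exonuclease genes were -0.26 in HT55 and -0.58 in SW948. EXOSC2, an exosome subunit, was at -1.84 (adjusted p = 1.14e-07) and the decapping enzyme DCP2 at 1.31 (adjusted p = 4.96e-09) in SW948. Of 7 genes listed under TOP RNA binding, 6 were higher and 1 lower in SW948, against 38.9% and 41.3% of all genes. In HT55, 1 was higher and 1 lower, against 27.5% and 26.5%. Without HT55 itraconazole replicate 3, 5 were higher and 1 lower in HT55. On plain library totals 2 were higher and 2 lower in SW948, against 25.2% and 54.6% of all genes. TIA1, which binds TOP mRNAs in stressed cells, was lower in both lines, at -0.44 (adjusted p = 0.00309) and -0.85 (adjusted p = 1.44e-05). Whether any of these moved with the host genes for a shared reason was not tested.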
